A study of Mus musculus with 6 samples.

Results

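Death receptors and the other signaling genes of the tumor necrosis factor (TNF) family were examined in RAW264.7 cells, a mouse macrophage line. The 9 genes were chosen by symbol among the 24062 genes of the count tables, and all 9 were found. They comprise the ligand gene Tnfsf10, the receptor genes Fas, Tnfrsf10b, Tnfrsf1a and Tnfrsf1b, and the genes Casp8, Cflar, Ripk1 and Ripk3, which act inside the cell. RNA was sequenced in 6 conditions with 1 library per condition, each made from RNA pooled from 5 wells of the one cell line. M0 cells were left unpolarized. M1 cells received LPS at 100 ng/mL with IFN-γ at 20 ng/mL for 24 h, and M2 cells received IL-4 at 20 ng/mL for 24 h. RM0, RM1 and RM2 cells were cells of those 3 states that were exposed to 10 Gy of gamma radiation from a cesium source and cultured for a further 24 h. Whether the non-irradiated cells were also kept for those extra hours was not stated in the sources used here. The labels name bone marrow as the tissue beside the cell line.

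Receptors of the TNF family sit in the plasma membrane as trimers and are engaged by trimeric ligands. Those with a cytoplasmic death domain (FAS, the TRAIL receptor encoded by Tnfrsf10b, and TNFR1 encoded by Tnfrsf1a) can recruit adaptors and caspase-8 to start apoptosis, whereas TNFR2, encoded by Tnfrsf1b, lacks a death domain and signals through TRAF proteins to NF-κB. The caspase-8-like protein c-FLIP (Cflar) limits caspase-8 activation, and the kinases RIPK1 and RIPK3 build the necrosome, which drives necroptosis when caspase-8 is blocked. In macrophages these genes are known to set the balance between inflammatory signaling and cell death, and Fas and Tnfrsf10b are known targets of p53 after DNA damage.

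The counts per library lay between 17894937 and 18870516. Values are given in CPM, the counts of a gene relative to the size of its library after scaling with the trimmed mean of M values (TMM), with an exact 95% Clopper-Pearson interval. These intervals cover counting error only, since wells were pooled, so no difference between 2 libraries has a replicate check or a p-value. A gene was called between 2 libraries at a change of at least 2-fold where either one held 10 or more counts. Of the markers of other cells, all 4 epithelial markers were at 0, all 5 T cell markers had at most 1 count and the 5 B cell markers at most 4 counts in every library. The 4 measured neutrophil markers summed to 2196 and 3074 CPM in M1 and RM1 and to 140.5 to 340.4 CPM elsewhere. Nearly all of this sum was S100a8 (32464 counts in M1 and 51228 in RM1). S100a9 had at most 19 counts in any library, and Elane and Mpo were at or under 3 counts throughout. The 5 fibroblast markers summed to 42.7 and 43.8 CPM in M1 and RM1 and to 5.92 to 9.33 CPM elsewhere. Nearly all of the sum in M1 and RM1 was Dcn (627 and 726 counts). Col1a1 had at most 11 counts in any library, and Col1a2 and Col3a1 were at 0 throughout. The part of these markers in the results was not tested. The 9 measured macrophage markers summed to at least 23090 CPM in every library (Adgre1 was not among the listed genes). All 7 M1 markers passed the test for higher expression in M1 (6 with library totals), whereas of 7 M2 markers only Cish passed it for M2 (not with library totals), the 3 tested (Cish, Mrc1 and Socs2) all passed as higher in M1, and Chil3 and Retnla were at 0 in all libraries. The M2 marker Arg1 reached 10 counts in too few libraries to be tested. It had 0 counts in M0 against 31 in M2, and 2 in RM0 against 89 in RM2 (log2 changes of 3.92 and 4.45). In such bulk RNA, fewer expressing cells and less RNA per cell cannot be told apart.

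Per kilobase of the longest annotated transcript, Tnfrsf1b had the highest level among the 9 genes, at 89.5 to 615.2 CPM per kb over the 6 libraries. Tnfrsf1a followed at 58.3 to 62.7 CPM per kb and Ripk3 at 32.3 to 54.4 CPM per kb, and these 3 ranges did not overlap. Cflar lay between 17.5 and 30.5 CPM per kb and Casp8 between 18.5 and 21.4 CPM per kb, so the levels of these neighbours overlapped. Fas spanned 4.10 to 40.5 CPM per kb, the widest relative range of the measured members, and its range crossed those of its neighbours in this order. Ripk1 at 5.10 to 8.63 CPM per kb and Tnfrsf10b at 3.15 to 6.19 CPM per kb overlapped too. Tnfsf10, which encodes the TRAIL ligand, had 3 counts in M1 and 0 counts in the other 5 libraries. The limit of 3 counts used for a count of 0 equals 0.148 to 0.18 CPM in those libraries, and the upper ends of their exact intervals were 0.182 to 0.221 CPM. All 6 libraries were at or under that limit, so no change of this ligand was measured.

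**Figure D1:**
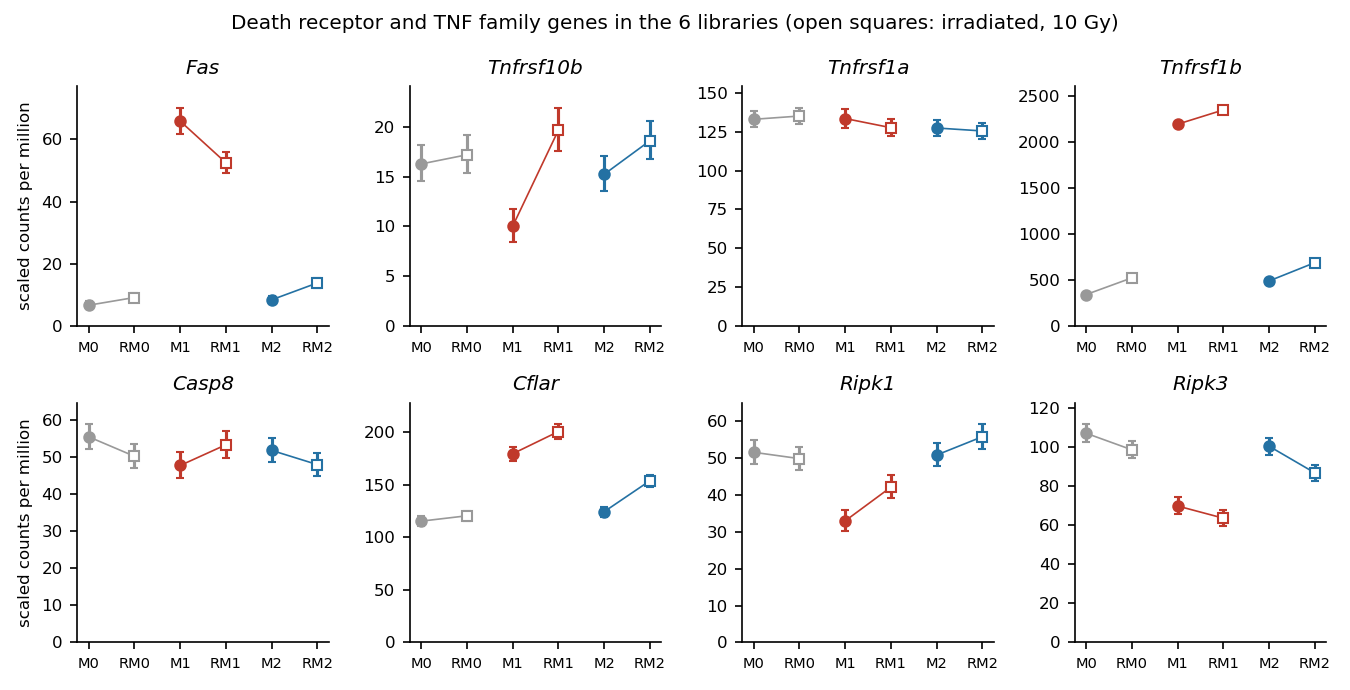
Scaled CPM (vertical axis, from 0) of the 8 measured genes in the 6 libraries, with filled circles for non-irradiated and open squares for irradiated cells, joined within a state, and bars for the 95% counting interval. Fas and Tnfrsf1b sit highest in the M1 and RM1 libraries, while Tnfrsf1a lies between 125.6 and 135.2 CPM.

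Polarization to M1 was the contrast in which the members differed most. Fas and Tnfrsf1b were the only 2 of the 8 measured members called between M1 and M0 and also between RM1 and RM0, in both cases higher. At this threshold 22.7% of all measured genes were called between M1 and M0 and 14.0% between RM1 and RM0, so 2 of 8 was a share near the background. An additive model of state and irradiation was fitted with edgeR's quasi-likelihood test and Benjamini-Hochberg adjustment over 11574 genes, in which the irradiated and non-irradiated pairs stand in for replicates. In it 5 of the 8 members passed 0.05 for M1 (3 higher, 2 lower), beside 47.6% of all genes tested. The median log2 change of the 8 members was -0.105 between M1 and M0 and 0.14 between RM1 and RM0, beside -0.03 and -0.01 over all measured genes.

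The promoter windows of 4 members are shown because the members that differed most in M1 are among those with a match to the gamma-activated sequence (GAS), an element known from the promoters of IFN-γ-induced genes. Each line gives the 250 bases before the RefSeq start on the strand of the gene in build GRCm38.p6, 5′ to 3′, with capitals for matches. The letters searched on both strands were TTCNNNGAA for GAS and GAAANNGAA for the core of the interferon-stimulated response element, which did not overlap each other in these windows, and the NF-κB site was searched by its consensus. The windows are Fas at chr19:34290409-34290658 (plus strand), Tnfrsf1b at chr4:145246871-145247120 (minus strand), Tnfrsf1a at chr6:125349473-125349722 (plus strand) and Ripk1 at chr13:34002624-34002873 (plus strand).
Fas: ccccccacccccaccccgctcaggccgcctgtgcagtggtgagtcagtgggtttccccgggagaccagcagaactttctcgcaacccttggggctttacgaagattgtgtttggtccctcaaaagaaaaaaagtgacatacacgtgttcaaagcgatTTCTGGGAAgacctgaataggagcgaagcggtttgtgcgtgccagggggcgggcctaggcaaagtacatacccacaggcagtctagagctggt
Tnfrsf1b: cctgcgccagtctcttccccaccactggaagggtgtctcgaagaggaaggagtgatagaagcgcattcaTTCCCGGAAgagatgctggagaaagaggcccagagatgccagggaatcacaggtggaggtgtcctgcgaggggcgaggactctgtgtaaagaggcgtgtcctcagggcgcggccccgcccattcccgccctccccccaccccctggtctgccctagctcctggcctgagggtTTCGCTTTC
Tnfrsf1a: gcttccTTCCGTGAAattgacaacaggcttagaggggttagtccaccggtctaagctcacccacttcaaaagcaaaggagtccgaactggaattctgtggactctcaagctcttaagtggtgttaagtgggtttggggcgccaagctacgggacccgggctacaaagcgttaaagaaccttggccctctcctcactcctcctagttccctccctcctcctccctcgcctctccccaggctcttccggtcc
Ripk1: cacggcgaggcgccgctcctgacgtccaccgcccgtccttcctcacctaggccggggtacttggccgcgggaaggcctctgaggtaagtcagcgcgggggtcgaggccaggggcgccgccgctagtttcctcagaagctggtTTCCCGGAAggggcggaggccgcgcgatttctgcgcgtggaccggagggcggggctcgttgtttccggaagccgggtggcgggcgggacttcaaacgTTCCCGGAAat
The GAS match of Fas lies 93 to 85 bases before the start and that of Tnfrsf1b 181 to 173 bases before it. Tnfrsf1b also holds the response element core in the last 9 bases before its start, here on the opposite strand. Tnfrsf1a has a GAS match 244 to 236 bases before its start. Ripk1 has 2 GAS matches, 108 to 100 and 11 to 3 bases before the start shown, and none in the window of its other annotated start. Of the 9 members 8 had an entry in the promoter table, and none of these had a match to the NF-κB site. Of 32851 promoters of the same length, 7.02% held GAS, 7.13% the response element core and 7.25% the NF-κB site. Such a match is a description of letters, not of a bound site, and the matches of Tnfrsf1a and Ripk1 stand beside RNA levels that were not higher in M1.

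Fas (NM_007987, chromosome 19, 34290659 to 34327770 on the plus strand of GRCm38) encodes the receptor for FAS ligand. Its level was 6.66 CPM in M0 (132 counts) against 9.13 CPM in RM0, 65.9 CPM in M1 (974 counts) against 52.5 CPM in RM1, and 8.38 CPM in M2 against 13.8 CPM in RM2. Both M1 libraries were far above the other 4, whose values ran up to 13.8 CPM. The log2 change was 3.29 (3.04 to 3.58) between M1 and M0, a 9.76-fold difference, and 2.51 (2.29 to 2.76) between RM1 and RM0. In the model Fas rose in M1 by a log2 change of 2.93 (SE 0.224, edgeR quasi-likelihood test with Benjamini-Hochberg adjustment, adjusted p = 5.13e-06).

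After irradiation the Fas level differed in opposite directions by state. It was higher by a log2 change of 0.45 (0.125 to 0.793) in RM0 than in M0 and by 0.71 (0.439 to 1.01) in RM2 than in M2, whereas RM1 was lower than M1 with a log2 change of -0.33 (-0.461 to -0.195). The change in the M1 state differed from that in the M0 state by -0.78 (-1.14 to -0.435) and from that in the M2 state by -1.05 (-1.35 to -0.743) on the log2 scale, intervals that hold counting error alone. Fas did not pass the test of a shared irradiation effect (log2 change 0.22, SE 0.179, edgeR quasi-likelihood test with Benjamini-Hochberg adjustment, adjusted p = 0.588). Without the M1 and RM1 libraries it passed (log2 change 0.61, adjusted p = 0.00349), in a setting where 281 of all 11457 genes tested were higher and 241 lower, against 40 and 15 of 11574 with all libraries. That setting drops the state in which Fas went the other way and leaves fewer residual degrees of freedom. It is therefore not a separate test of a shared effect.

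Tnfrsf10b (NM_020275, chromosome 14, 69767472 to 69784411, plus strand) encodes the only mouse death receptor for TRAIL. The levels were 16.3 CPM in M0 (323 counts) against 17.2 CPM in RM0, 10.0 CPM in M1 (148 counts) against 19.7 CPM in RM1 (328 counts), and 15.2 CPM in M2 against 18.6 CPM in RM2. Only the M1 library stood apart, and the other 5 lay within 15.2 to 19.7 CPM. M1 was lower than M0, with a log2 change of -0.70 (-0.993 to -0.417), whereas RM1 and RM0 differed by 0.19 with an interval that included 0 (-0.0299 to 0.417), a difference of -0.05 with library totals. After irradiation the log2 change was 0.97 (0.69 to 1.26) in the M1 state, a 1.96-fold difference just under the 2-fold threshold, 0.29 (0.066 to 0.511) in the M2 state and 0.08 (-0.146 to 0.303) in the M0 state. The change in the M1 state exceeded that in the M0 state by 0.90 (0.54 to 1.25) and that in the M2 state by 0.69 (0.332 to 1.04). With scaling by library totals the change in the M1 state was 1.11 and past the threshold. Neither coefficient of the model passed (irradiation 0.43, SE 0.164, edgeR quasi-likelihood test with Benjamini-Hochberg adjustment, adjusted p = 0.27, and M1 -0.22, SE 0.202, adjusted p = 0.396).

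Tnfrsf1b (NM_011610, chromosome 4, 145212368 to 145246870, minus strand) encodes TNFR2. Its level was 341.6 CPM in M0 (6775 counts) against 522.9 CPM in RM0, 2194 CPM in M1 (32447 counts) against 2349 CPM in RM1 (39160 counts), and 489 CPM in M2 against 687.9 CPM in RM2. The M1 and RM1 libraries lay above all others, and within each state the irradiated library was the higher one. Between M1 and M0 the log2 change was 2.68 (2.65 to 2.72), a 6.42-fold difference, and between RM1 and RM0 it was 2.17 (2.14 to 2.2). Tnfrsf1b rose in M1 in the model with a log2 change of 2.43 (SE 0.169, edgeR quasi-likelihood test with Benjamini-Hochberg adjustment, adjusted p = 2.74e-06). The irradiation changes were 0.61 (0.57 to 0.659) in the M0 state, 0.10 (0.0767 to 0.119) in the M1 state and 0.49 (0.455 to 0.53) in the M2 state. Their common value of 0.40 (SE 0.131) did not pass the same test (adjusted p = 0.209), although without the M1 and RM1 libraries it was 0.56 and passed (adjusted p = 7.25e-07), beside the same 281 and 241 genes. Here too that setting drops the state with the smallest change (0.10), so it is not a separate test. The change in that M1 state was 0.24 with library totals and 0.22 after removal of the GC trend. M2 was also above M0, by 0.52 (0.473 to 0.562), and RM2 above RM0 by 0.40 (0.359 to 0.433), changes that the model did not call (0.45, SE 0.161, adjusted p = 0.458).

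Tnfrsf1a (NM_011609, chromosome 6, 125349723 to 125362483, plus strand) encodes TNFR1, the death domain receptor for TNF. Its 6 levels were 133.1 CPM in M0 against 135.2 CPM in RM0, 133.6 CPM in M1 against 127.7 CPM in RM1, and 127.5 CPM in M2 against 125.6 CPM in RM2. The highest was 1.08-fold the lowest, the narrowest range of the measured members. All 3 irradiation changes had intervals that included 0, with log2 values of 0.02, -0.06 and -0.02 in the M0, M1 and M2 states. With library totals, under which the median of all genes moved by -0.462 between M1 and M0, by -0.252 between RM1 and RM0 and by 0.129 between RM1 and M1, Tnfrsf1a gave -0.44 between M1 and M0, close to that shift, and passed the model's test for M1 as lower (log2 change -0.38, edgeR quasi-likelihood test with Benjamini-Hochberg adjustment, adjusted p = 0.0197).

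**Figure D2:**
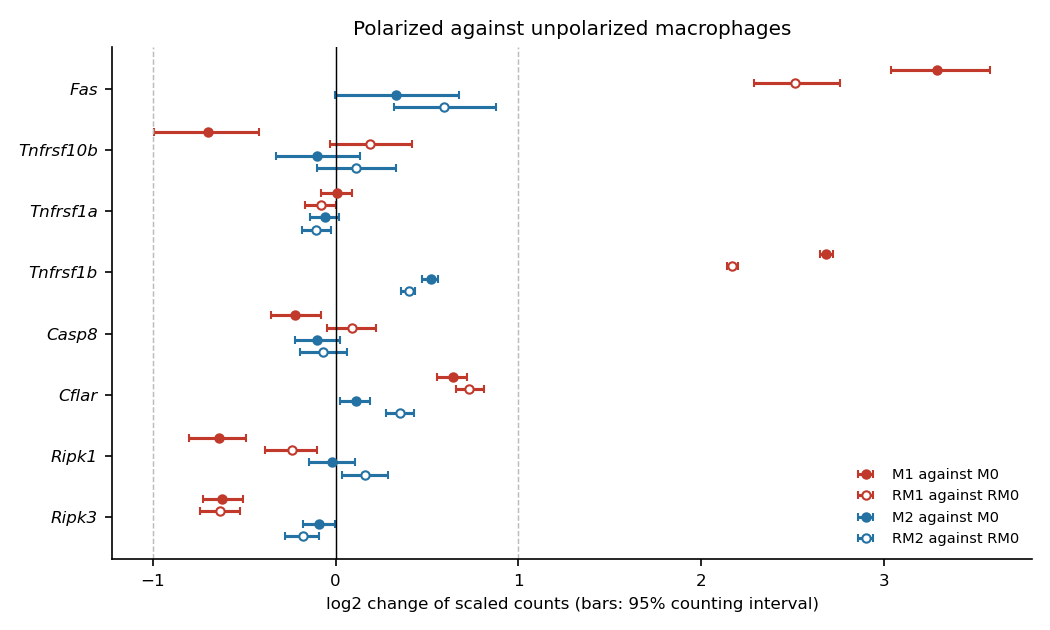
Log2 change of scaled counts (horizontal axis) of each gene between polarized and unpolarized cells, filled for non-irradiated and open for irradiated pairs, red for M1 and blue for M2, with bars for the 95% counting interval and dashed lines at 2-fold. Only Fas and Tnfrsf1b lie past 2-fold, in both M1 pairs, with log2 changes between 2.17 and 3.29.

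Inside the cell, Cflar was higher and Ripk3 was lower in both M1 libraries. Cflar (NR_110361, chromosome 1, 58711508 to 58759203, plus strand) stood at 115.2 CPM in M0 against 120.3 CPM in RM0, 179.2 CPM in M1 against 200.3 CPM in RM1, and 124.1 CPM in M2 against 153.5 CPM in RM2. The M1 and RM1 libraries were the 2 highest and RM2 came next. Its log2 change was 0.64 (0.556 to 0.719) between M1 and M0 and 0.73 (0.659 to 0.812) between RM1 and RM0, and it rose in M1 in the model (0.69, SE 0.122, edgeR quasi-likelihood test with Benjamini-Hochberg adjustment, adjusted p = 0.00105). With library totals the log2 changes were smaller, at 0.20 between M1 and M0 and 0.49 between RM1 and RM0. Irradiation changes were 0.06 in the M0 state, 0.16 (0.0871 to 0.235) in the M1 state and 0.31 (0.231 to 0.384) in the M2 state. After removal of the trend with transcript GC content the value in the M1 state was 0.02. Of the 100-base windows of its longest transcript 7.97% occurred in other genes as well, so part of its reads is uncertain.

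Casp8 (NM_001277926, chromosome 1, 58795374 to 58847503, plus strand), the initiator caspase gene that lies 36170 bases from Cflar, varied little. The 6 levels were 55.4 CPM in M0 against 50.2 CPM in RM0, 47.7 CPM in M1 against 53.3 CPM in RM1, and 51.8 CPM in M2 against 47.9 CPM in RM2. The highest was 1.16-fold the lowest. Irradiation changes on the log2 scale were -0.14 (-0.269 to -0.0179) in the M0 state and 0.16 (0.0153 to 0.304) in the M1 state, of opposite direction, and -0.11 in the M2 state. After removal of the GC trend the value in the M1 state was 0.08. No coefficient of the model passed for this gene (M1 -0.06, SE 0.129, edgeR quasi-likelihood test with Benjamini-Hochberg adjustment, adjusted p = 0.717).

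Ripk1 (NM_009068, chromosome 13, 34002874 to 34035170, plus strand) encodes the kinase that joins TNFR1 to survival or death signaling. Its level was 51.6 CPM in M0 against 49.9 CPM in RM0, 33.0 CPM in M1 against 42.2 CPM in RM1, and 50.9 CPM in M2 against 55.9 CPM in RM2. The lowest values were those of M1 and then RM1. Ripk1 fell in M1 in the model (-0.44, SE 0.134, edgeR quasi-likelihood test with Benjamini-Hochberg adjustment, adjusted p = 0.0194), with log2 changes of -0.64 (-0.804 to -0.489) without and -0.24 (-0.385 to -0.102) with irradiation. RM1 was above M1 by 0.35 (0.185 to 0.523), RM2 was above M2 by 0.13 (0.0108 to 0.258), and RM0 differed from M0 by -0.05 with an interval that included 0. Exons of Ripk1 overlap Serpinb6a on the opposite strand and the pseudogene Gm17084 on the same strand, and since the strand setting of the counting was not given, reads of these genes cannot be told apart from those of Ripk1.

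Ripk3 (NM_001164108, chromosome 14, 55784995 to 55788857, minus strand) encodes the kinase that activates MLKL in necroptosis. It stood at 106.9 CPM in M0 against 98.5 CPM in RM0, 69.7 CPM in M1 against 63.5 CPM in RM1, and 100.3 CPM in M2 against 86.7 CPM in RM2. Both M1 libraries were below the other 4, and within every state the irradiated library was the lower one. The log2 change between M1 and M0 was -0.62 (-0.725 to -0.508) and that between RM1 and RM0 -0.63 (-0.742 to -0.523), and Ripk3 fell in M1 in the model (-0.62, SE 0.118, edgeR quasi-likelihood test with Benjamini-Hochberg adjustment, adjusted p = 0.00155). Irradiation changes were -0.12 (-0.208 to -0.029), -0.13 (-0.26 to -0.00956) and -0.21 (-0.303 to -0.117) in the M0, M1 and M2 states. Their common value of -0.15 (SE 0.0956) did not pass (adjusted p = 0.467), and in the M1 state the change was -0.00 after removal of the GC trend and 0.01 with library totals.

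None of the 8 measured members was called after irradiation in any state. Over all measured genes 1.54% were called between RM0 and M0, 5.34% between RM1 and M1 and 1.97% between RM2 and M2. Counting intervals without 0 were found for 4 members in the M0 state (2 higher, 2 lower), 7 in the M1 state (5 higher, 2 lower) and 6 in the M2 state (5 higher, 1 lower), beside 31.7%, 57.2% and 41.5% of all measured genes. The median log2 change of the members was 0.04, 0.13 and 0.21 in the M0, M1 and M2 states, beside -0.00, -0.01 and -0.00 over all genes. In edgeR's quasi-likelihood test of an effect shared by the 3 states none of the 8 passed after Benjamini-Hochberg adjustment, beside 0.475% of all genes. Tnfrsf1b and Tnfrsf10b were the 2 members with an unadjusted p under 0.05, beside 14.7% of all genes (1707 of 11574), and DESeq2 called 0 members. The irradiation and polarization comparisons share libraries, such as M1 or M0, so their values are not independent of each other.

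**Figure D3:**
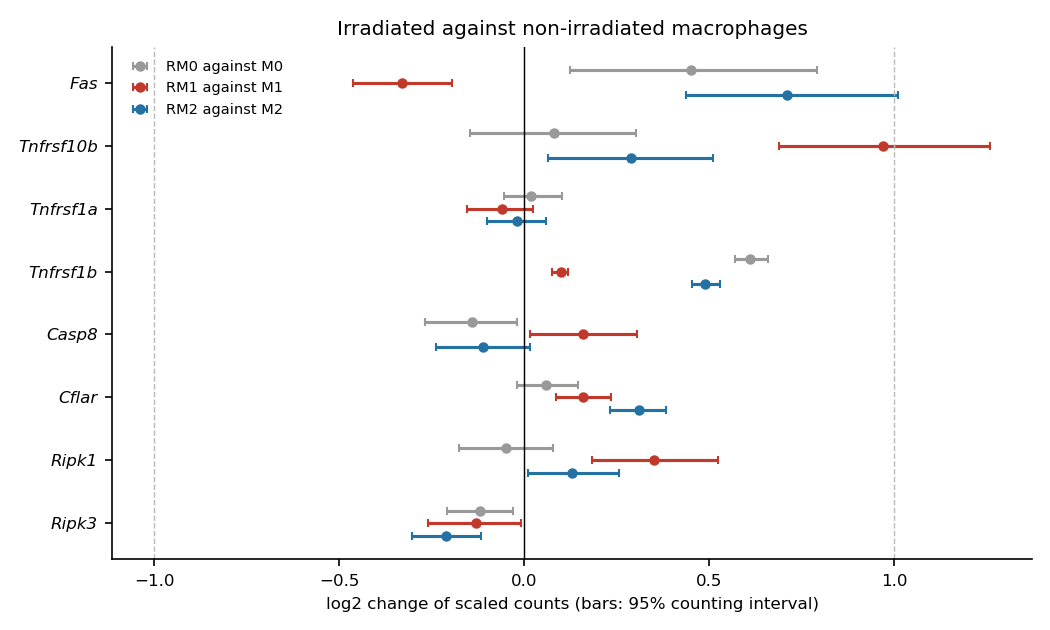
Log2 change of scaled counts (horizontal axis) of each gene after 10 Gy, grey for RM0 against M0, red for RM1 against M1 and blue for RM2 against M2, with bars for the 95% counting interval and dashed lines at 2-fold. Fas lies at -0.33 in the M1 state and at 0.45 and 0.71 in the others, and Tnfrsf10b is largest in the M1 state at 0.97.

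Members differed little between M2 and M0. None of the 8 was called between M2 and M0 or between RM2 and RM0, where 1.44% and 2.61% of all genes were called, and none passed edgeR's quasi-likelihood test for M2, beside 0.190% of all genes (1 member, Tnfrsf1b, had an unadjusted p under 0.05, beside 10.1% of all genes, and DESeq2 called 0 members). The higher values were those of Fas, at 0.33 (-0.00391 to 0.672) without and 0.59 (0.319 to 0.876) with irradiation, of Tnfrsf1b given above, and of Cflar, at 0.11 without and 0.35 (0.273 to 0.43) with irradiation. After removal of the GC trend the values between RM2 and RM0 were smaller for Fas (0.38) and Cflar (0.16) and larger for Tnfrsf1b (0.54). Without the M1 and RM1 libraries Fas (log2 change 0.48, edgeR quasi-likelihood test with Benjamini-Hochberg adjustment, adjusted p = 0.0211) and Tnfrsf1b (0.46, adjusted p = 7.61e-05) passed for M2, beside 787 higher and 535 lower of all 11457 genes, against 18 and 4 of 11574 with all libraries. M1 and M2 were both compared with the same M0 library.

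Ratios of 2 genes within a library do not depend on the scaling between libraries, but can still follow differences in GC content between the genes. The count ratio of Cflar to Casp8, an inhibitor and its target, was 2.08 in M0 against 2.4 in RM0, 3.76 in M1 against 3.76 in RM1, and 2.4 in M2 against 3.2 in RM2. It was highest in both M1 libraries, 1.81-fold (1.62 to 2.02) above M0 without irradiation, and irradiation went with a 1.15-fold (1.04 to 1.28) higher ratio in the M0 state, a 1.34-fold (1.21 to 1.48) higher one in the M2 state and no detectable difference in the M1 state (0.896 to 1.12). Per length of the longest annotated transcript, the ratio was 1.48 in M1, 1.48 in RM1 and 1.26 in RM2. It was 0.817 in M0, 0.943 in M2 and 0.944 in RM0, and the values of M2 and RM0 lay within counting error of equal levels. Which transcripts were expressed was not measured, so which of the 2 RNAs was in excess stays uncertain.

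The ratio of Ripk3 to Ripk1 counts was 2.07 in M0, 2.11 in M1, 1.97 in M2 and 1.97 in RM0, and lower at 1.51 in RM1 and 1.55 in RM2. Irradiation went with a 0.713-fold (0.617 to 0.823) ratio in the M1 state and a 0.788-fold (0.708 to 0.876) ratio in the M2 state, while in the M0 state the interval included 1 (0.856 to 1.06). The longest transcripts of Ripk3 and Ripk1 differ in GC content (54.2% and 45.1%). After removal of the GC trend the log2 irradiation changes were -0.00 for Ripk3 and 0.23 for Ripk1 in the M1 state, and -0.14 and 0.06 in the M2 state. Between M1 and M0, where both kinase genes were lower, the ratio changed by 1.02-fold (0.895 to 1.16).

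Between the TNF receptors, the ratio of Tnfrsf1b to Tnfrsf1a counts was 2.57 in M0 against 3.87 in RM0, 16.4 in M1 against 18.4 in RM1, and 3.84 in M2 against 5.48 in RM2. TNFR2 RNA thus exceeded TNFR1 RNA in every library, also per length, where the ratio ran from 1.45 in M0 to 10.4 in RM1. Irradiation went with a higher ratio in each state, 1.51-fold (1.42 to 1.6) in M0, 1.12-fold (1.05 to 1.19) in M1 and 1.43-fold (1.34 to 1.52) in M2. Between the death receptors, the ratio of Tnfrsf10b to Fas counts was 2.45 in M0 against 1.88 in RM0, 0.152 in M1 against 0.375 in RM1, and 1.82 in M2 against 1.35 in RM2. In the M1 state it was 2.47-fold (1.99 to 3.06) higher after irradiation, while the M2 state gave 0.741-fold (0.581 to 0.946) and the M0 state 0.769-fold with an interval that included 1 (0.586 to 1.01).

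**Figure D4:**
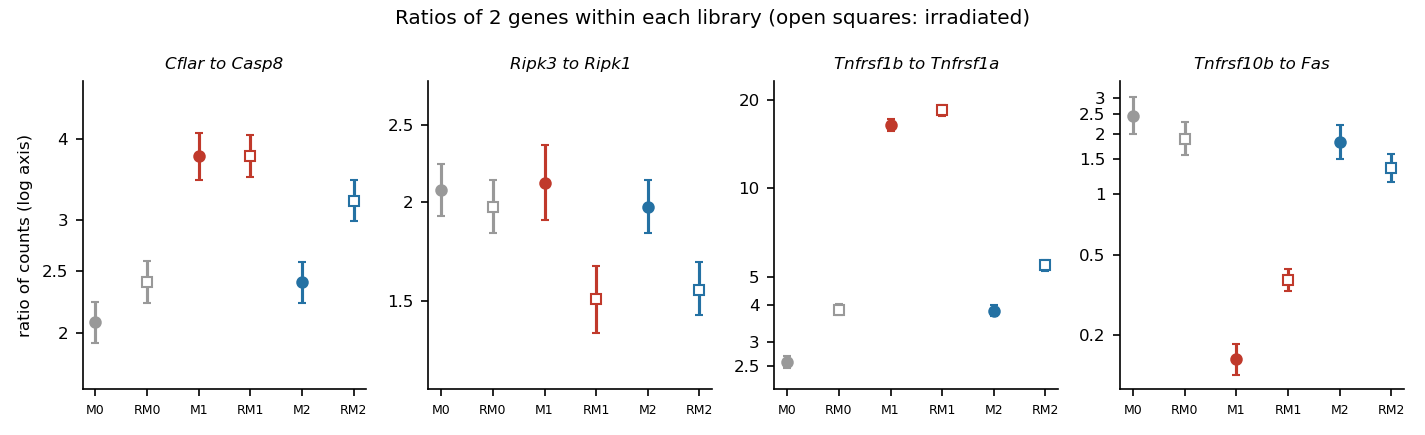
Ratio of the counts of 2 genes within each library (vertical log axis), filled circles for non-irradiated and open squares for irradiated cells, with bars for the 95% counting interval. The Tnfrsf1b to Tnfrsf1a ratio reaches 16.4 and 18.4 in the M1 libraries, and the Ripk3 to Ripk1 ratio is lowest in RM1 and RM2 at 1.51 and 1.55.

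The other genes of the pathway were taken from lists of the whole family and its signaling machinery, 88 genes in all, of which 66 were tested. In M1 31 of these 66 passed, beside 47.6% of all genes tested, so the counts by list that follow are descriptions of a share near the background. Of 17 other ligand genes, 8 had enough counts to be tested. In edgeR's quasi-likelihood test for M1, 1 was higher and 2 were lower: Tnfsf9, Ltb and Tnfsf13. Tnfsf9, the ligand of 4-1BB, had 740 counts in M0 against 686 in RM0, 1683 in M1 against 1263 in RM1, and 653 in M2 against 514 in RM2 (log2 change for M1 1.36, SE 0.142, edgeR with Benjamini-Hochberg adjustment, adjusted p = 3.94e-05). Ltb, a subunit of the lymphotoxin heterotrimer, had 570 counts in M0 against 505 in RM0, 141 in M1 against 84 in RM1, and 346 in M2 against 214 in RM2 (-1.96, SE 0.196, adjusted p = 2.92e-05). The ligand of FAS, Fasl, had at most 1 count in any library, whereas Tnf, with 7099 to 10149 counts, was abundant throughout and had irradiation changes of 0.12, -0.27 and -0.01 in the M0, M1 and M2 states. RNA of the ligands of FAS and of the TRAIL receptor, Fasl and Tnfsf10, was at or under 3 counts in every library, while RNA of Tnf, the ligand of TNFR1 and TNFR2, was present in all 6.

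Of 24 other receptor genes 11 were tested, and 5 rose and none fell in M1 (Cd40, Tnfrsf14, Tnfrsf22, Tnfrsf23 and Tnfrsf26). With library totals Cd40 and Tnfrsf23 remained and Ltbr was called lower. Cd40, the costimulatory receptor for T cell help, had 582 counts in M0 against 531 in RM0, 2550 in M1 against 1285 in RM1, and 568 in M2 against 514 in RM2 (log2 change for M1 2.07, SE 0.227, edgeR quasi-likelihood test with Benjamini-Hochberg adjustment, adjusted p = 5.63e-05). Tnfrsf23, a decoy receptor for TRAIL in the mouse, had 1413, 2519 and 1335 counts in M0, M1 and M2 and 1598, 2764 and 1487 counts in RM0, RM1 and RM2 (1.14, SE 0.123, adjusted p = 4.99e-05). Both were higher in each M1 library than in every other library.

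Tnfrsf9, which encodes 4-1BB, was the only one of the 66 tested genes on these lists to pass the shared irradiation test, with edgeR as with DESeq2, while 15 of the 66 had an unadjusted p under 0.05, beside 14.7% of all genes. Its counts were 451 without and 686 with irradiation in the M0 state, 330 and 886 in the M1 state and 312 and 667 in the M2 state. All 3 irradiated libraries exceeded all 3 non-irradiated ones. The log2 changes were 0.62, 1.25 and 1.12 in the M0, M1 and M2 states, with a common value of 1.00 (SE 0.131, edgeR quasi-likelihood test with Benjamini-Hochberg adjustment, adjusted p = 0.0112), and the call was lost with scaling by library totals (adjusted p = 0.117). Calls between RM1 and M1 at 2-fold were made for 4 of the 11 measured receptors, beside 5.34% of all measured genes. The count was 3 with a filter of at least 50 counts or with the GC trend removed. Tnfrsf9 and Eda2r, a receptor gene known as a p53 target, were higher, with 51 and 122 counts of Eda2r (log2 change 1.06), and Cd40 (-1.16) and Tnfrsf14 (24 and 11 counts, -1.17) were lower. Eda2r and Tnfrsf14 are named here after their values were seen. Between the same libraries 1 of 9 measured other ligand genes was called. On the lists described below, 0 of 28 adaptor and ubiquitin machinery genes, 0 of 12 genes downstream of caspase-8 and 0 of 7 necroptosis partners were called.

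**Figure D5:**
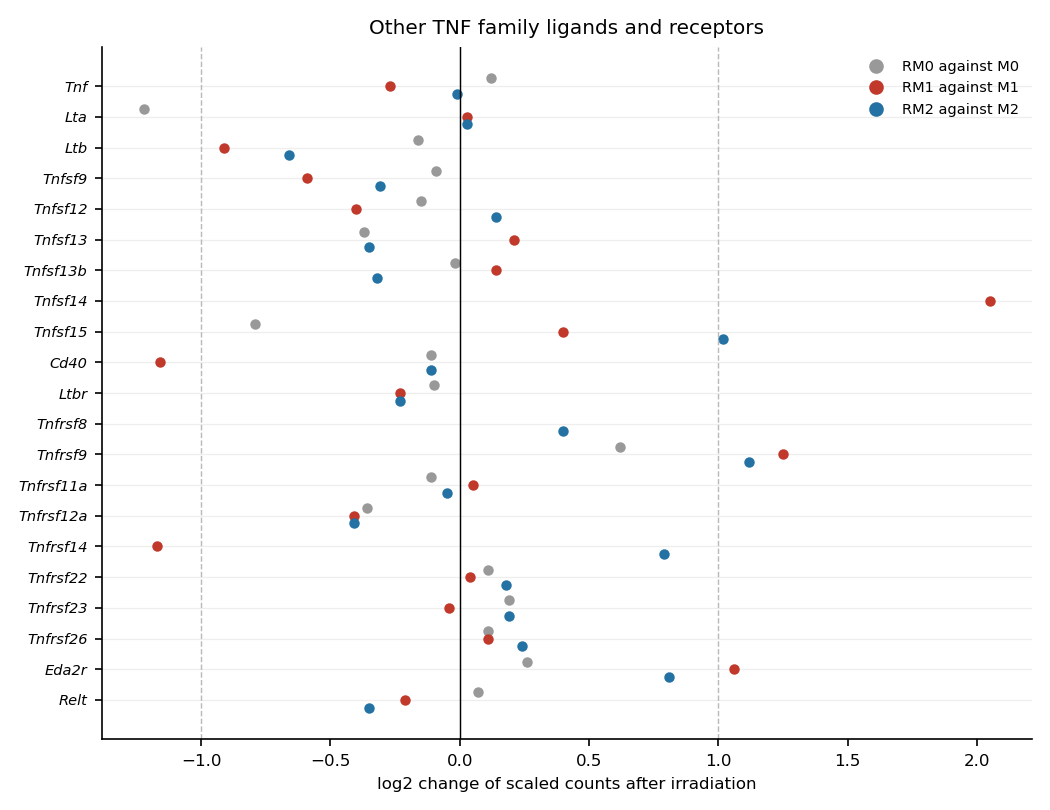
Log2 change of scaled counts after 10 Gy (horizontal axis) of the other TNF family ligand and receptor genes that reached 10 counts in either library compared, grey for the M0, red for the M1 and blue for the M2 state, with dashed lines at 2-fold and no error bars. Tnfrsf9 lies to the right in all 3 states, at 0.62, 1.25 and 1.12.

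Among 28 adaptor and ubiquitin machinery genes of the receptor complexes, 7 rose and 6 fell in M1 (3 and 10 with library totals). Tnfaip3, which encodes the ubiquitin editor A20 that restrains TNF signaling, had 452 counts in M0 against 619 in RM0, 2352 in M1 against 1841 in RM1, and 501 in M2 against 640 in RM2 (log2 change for M1 2.32, SE 0.215, edgeR quasi-likelihood test with Benjamini-Hochberg adjustment, adjusted p = 1.81e-05). Of 12 genes that act downstream of caspase-8, 5 rose, Bak1, Casp6 and Cycs among them, and 2 fell (Bax and Diablo), against 3 and 3 with library totals. Casp6, an executioner caspase gene, had 295 counts in M0 against 340 in RM0, 1025 in M1 against 1112 in RM1, and 474 in M2 against 545 in RM2 (2.08, SE 0.136, adjusted p = 1.92e-06). Of 7 necroptosis partners Mlkl and Zbp1 rose and Pgam5 fell (2 and 4 with library totals). Zbp1, a nucleic acid sensor that engages RIPK3, had 293 counts in M0 against 386 in RM0, 3251 in M1 against 2220 in RM1, and 213 in M2 against 171 in RM2 (3.32, SE 0.225, adjusted p = 2.36e-06). In the same M1 libraries Ripk3, Ripk1 and Pgam5 were thus lower, and the sensor and effector genes Zbp1 and Mlkl higher. The median log2 change of the 7 necroptosis partners was 0.13 between M1 and M0 and -0.24 between RM1 and RM0. In edgeR's quasi-likelihood test none of the 66 tested genes on these lists passed for M2, where 10 of them had an unadjusted p under 0.05, beside 10.1% of all genes, and DESeq2 called 1 (Ltb).

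The genes whose profile over the 6 libraries was most like that of each member were found by the root mean square (RMS) difference of centred log2 CPM among 10190 genes, those averaging 50 counts or more. For Fas these were Dcn and Glipr2 (RMS 0.176 and 0.179), and for Tnfrsf1b Il1rn and Il6 (0.145 and 0.169). Dcn had 113, 627 and 114 counts in M0, M1 and M2 and 145, 726 and 177 in RM0, RM1 and RM2, and it was the gene that carried most of the fibroblast marker sum. Tnfrsf10b was closest to Gzf1 and Lpin1 (0.0502 and 0.0504), which shared its low value in M1 alone. For Cflar the nearest were Tmem30a and the receptor gene Tnfrsf26 (0.0297 and 0.033), for Ripk1 Scrn3 and Rsu1 (0.0239 and 0.0254), and for Ripk3 Klhl8 and Trim47 (0.0287 and 0.0305). Casp8 and Tnfrsf1a, whose levels varied little, were nearest to Cd59b and Ndufaf7 (0.0253 and 0.0308) and to Alg9 and Rassf3 (0.0125 and 0.0213). These likenesses rest on 6 libraries that share their scaling, and no function is inferred from them.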

How the data were processed

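RNA-seq counts per gene of 6 RAW264.7 libraries were used as deposited. The authors counted reads with HTSeq, and the submitters' processing notes also name Trimmomatic 0.36, HISAT2 2.2.1, HTSeq 0.11.3 and build mm10. The deposited values are raw counts for 24062 RefSeq genes, of which 8137 were at 0 throughout and 27 identifiers had been turned into dates. Total counts were 17894937 to 18870516 per library. The 9 members and all gene lists were chosen with earlier results of these data known.

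Counts were scaled by TMM in edgeR 4.0.16 (R 4.3.3), with a prior count of 2 in log2 changes. The quasi-likelihood test of edgeR used an additive model of state and irradiation (2 residual degrees of freedom) on the 11574 genes that reached 10 counts in 3 or more libraries. P-values were adjusted by Benjamini-Hochberg and called at 0.05. The 3 states serve as replicates, so the test assumes the same irradiation effect in each. Standard errors were derived from the F statistic. Pairwise comparisons of 1 library with 1 library carry no p-value. Transcript lengths and GC content came from GENCODE M21 and promoters from RefSeq. The scripts were tested on simulated data.

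Beyond the members, a rule named genes that passed the irradiation test. It also named the 3 with the largest mean M1 change per list among those called the same way in both M1 pairs. In addition, 2 profile neighbours were named per member. Further list genes, among them Tnf, Fasl, Tnfsf13, Bak1, Cycs, Mlkl, Pgam5 and Eda2r, were named outside this rule. Alternatives were DESeq2 1.42.0 (test or size factors), library totals, a prior count of 0.25, other count filters, a 1.5-fold threshold, removal of a GC trend, models without a covariate and each state left out. Python 3.11.15, numpy 2.4.6, pandas 2.3.3, scipy 1.17.1, statsmodels 0.14.6 and matplotlib 3.10.9 were used for the rest. Protein, qPCR and exosome measurements were not analysed here. Some single genes of the lists are not reported here.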

Additional observations from a re-analysis of the deposited data

Results flagged for a closer look

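For 2 members the irradiated library was higher in one state and lower in another with counting intervals that left out 0 in both, and with 1 library per condition the difference between states was not tested over samples. The log2 change of Fas after irradiation was 0.45 in the M0 state and 0.71 in the M2 state but -0.33 in the M1 state. That of Casp8 was -0.14 in the M0 state and 0.16 in the M1 state. After removal of the GC trend the Casp8 value in the M1 state was 0.08, within counting error of 0. The changes of Ripk1 and Tnfrsf1a also differed in sign between states, but with intervals that included 0 in at least 1 of the states compared. In M1 and RM1, the libraries in which Fas was lower after irradiation, Fas was also at its highest levels.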

How the results depend on the processing

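With 1 library per condition, no difference between 2 libraries has a replicate check, and Tnfsf10, at or under 3 counts throughout, could not be compared at this depth. A 1.5-fold threshold gave 1 member called between RM0 and M0, 1 between RM1 and M1, 1 between RM2 and M2, 6 between M1 and M0, 4 between RM1 and RM0 and 1 between RM2 and RM0, by its own construction, beside 5.95%, 17.8%, 7.19%, 44.7%, 32.6% and 10.3% of all measured genes. Library totals gave 1 between RM1 and M1 (Tnfrsf10b) and 5 between M1 and M0 (Tnfrsf10b, Ripk1 and Ripk3 in addition, all lower), beside 5.98% and 30.4% of all measured genes, with the median of all genes moved as given above. DESeq2 size factors, a prior count of 0.25, other count filters and the GC trend changed no count of called members. In the model, leaving out the M1 and RM1 libraries gave 2 members past 0.05 for irradiation and 2 for M2, against 0 for each with all libraries, and the cause was not tested. For both contrasts these were Fas and Tnfrsf1b, whose irradiation changes were lowest in the M1 state. The fit without that state also has fewer residual degrees of freedom. Over all 11457 genes that setting gave 281 higher and 241 lower for irradiation and 787 and 535 for M2, against 40 and 15, and 18 and 4, with all libraries. The 5 members passing for M1 became 6 with library totals and stayed at 5 under the other alternatives. Directions that turned were all of changes that did not pass: Fas after irradiation gave -0.10 with no state term, Casp8 0.02 without the M0 and RM0 libraries and 0.01 with the M2 state left out (M2 and RM2), Tnfrsf1a 0.01 without the M1 and RM1 libraries, and Tnfrsf10b for M2 -0.01 with DESeq2 or its size factors. Of 224 recomputed changes of members between 2 libraries, 181 moved by less than their counting error and 43 by more, 25 with library totals and 18 with the GC trend removed. The labels give no replicate numbers by which to pair libraries, and the model with state as a term already sets each irradiated library against that of its own state.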
